A study of Oryctolagus cuniculus with 6 samples.

Results

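The RAB small GTPases are 53 of the 22190 genes in the count table of this series, taken as every row whose symbol is RAB followed by a number and at most a letter and a digit. RNA-seq was performed on primary limbal stem cells (LSCs) cultured as outgrowths of limbal tissue from rabbits. The fresh group had 3 libraries from fresh corneas, and the preconditioned group had 3 from corneas held in liquid nitrogen for 7 days in freezing medium to which the inflammatory cytokine IL-1β had been added at 10 ng/mL. No line, strain, age or allele is given for the rabbits, and freezing and IL-1β were applied together, so that their effects cannot be told apart. Nothing states whether the 3 libraries of a group came from different animals or separate cultures, and the p values measure only the spread between these libraries. The comparison asks how genes of membrane traffic differed between LSCs of the preconditioned and the fresh group, and whether members that act in secretion and exosome release differed in another way from those of endosomes and of the Golgi.

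RAB proteins are molecular switches on membranes. Bound to GTP, a RAB recruits effectors such as tethers and motors to its own compartment, and after GTP hydrolysis it is taken off the membrane by GDI and used again. Activators load GTP onto the protein, and proteins with a TBC domain speed up the hydrolysis. RAB27A and RAB27B dock multivesicular bodies and secretory granules at the plasma membrane, the RAB3 proteins act in regulated exocytosis, and the RAB11 proteins act in the recycling endosome. RAB5 marks early endosomes, RAB4 serves fast recycling, RAB7A marks late endosomes and lysosomes, and RAB1, RAB2 and RAB6 work between the endoplasmic reticulum (ER) and the Golgi. In an epithelium such as that of the limbus, these routes carry adhesion receptors, matrix proteins and extracellular vesicles to and from the cell surface.

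The libraries held 31952352 to 34327534 counts on genes, 0.428% to 0.531% of them on RAB genes. Levels in CPM, the count relative to the library total, were scaled by edgeR's TMM factors. On the first principal component, which held 50.4% of the variance, preconditioned replicate 1 lay at 8.13, between the fresh libraries (−53.1 to −41.1) and the other preconditioned libraries (58.3 and 70.4). Of the markers of limbal epithelium, KRT5 had 7333 to 11734 CPM, whereas KRT15 had 0.987 to 9.70 CPM and GPHA2 at most 1.53 CPM. GPHA2 had 14, 2 and 56 counts in the fresh and 0 in every preconditioned library, and was too low to be tested. TP63 lay lower in every preconditioned library, at 112 to 183 CPM against 226 to 246 CPM (log2 fold change −0.77, adjusted p = 0.059 by edgeR). The 3 other limbal markers differed in direction. PAX6 had 174 to 217 CPM in the fresh and 203 to 459 CPM in the preconditioned group (log2 fold change 0.81, adjusted p = 0.11), CDH3 had 248 to 272 and 76.5 to 242 CPM (−0.65, adjusted p = 0.27), and ITGA6 had 1213 to 1576 and 1258 to 1470 CPM (−0.12, adjusted p = 0.62). Of the 3 markers of differentiated corneal epithelium, TKT fell, from 1045 to 1473 CPM in the fresh group to 467 to 792 CPM in the preconditioned group (log2 fold change −1.06, adjusted p = 0.048 by edgeR). KRT3 had 409 to 2654 and 239 to 800 CPM and CLU 9331 to 12180 and 9424 to 14566 CPM, both with overlap. The summed level of 12 stromal fibroblast genes was 547 to 1178 CPM in the fresh and 1319 to 2363 CPM in the preconditioned group, and COL1A1 was the 1 of the 12 that passed the limit of 0.05. Without COL1A1 the sums overlapped, at 490 to 1069 and 815 to 1671 CPM. KERA, THY1, DCN and PDGFRB had negative log2 fold changes. FAP, COL1A2, COL3A1, PDGFRA, POSTN, LUM and VIM had positive ones. Of these, FAP alone had no overlap between the groups (log2 fold change 1.81, adjusted p = 0.076 by edgeR). The part of these markers in the RAB values was not tested. In bulk libraries such as these, fewer cells of a type and less RNA per cell cannot be told apart.

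RAB11A had the highest level of the family on the FPKM scale, which corrects for gene length. Its mean over the 6 libraries was 371 FPKM, ahead of RAB7A with 228, RAB1A with 213, RAB24 with 128 and RAB10 with 113 FPKM. These 5 genes made up 49.2% of the summed mean FPKM of the family. RAB11A lay above every other member in each library, from 316 to 423 FPKM. The ranges of RAB7A (200 to 252 FPKM) and RAB1A (176 to 240 FPKM) overlapped, and so did those of RAB24, RAB10 and RAB5C, so that the order within these neighbours was not separated from the spread. Of the 53 members, 6 had a mean of at least 100 FPKM, 25 had 10 to 100, 9 had 1 to 10 and 13 had less than 1 FPKM.

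**Figure D1:**
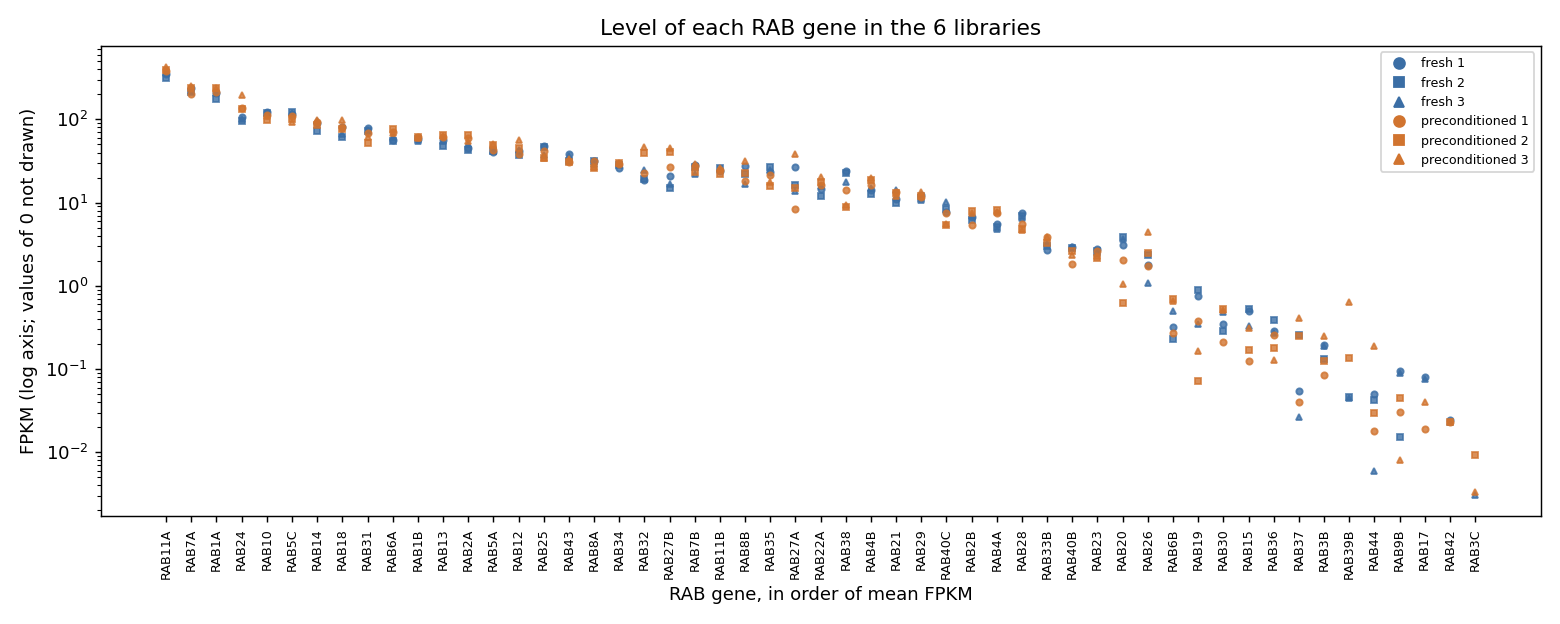
FPKM of the 53 RAB genes (log axis) in each of the 3 fresh (blue) and 3 preconditioned (orange) libraries, with genes in order of their mean. RAB11A lies highest in all 6 libraries, and the spread between libraries is widest among the genes under 1 FPKM.

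The filter on low counts left 47 of the 53 members. The other 6 were RAB3C, RAB9B, RAB17, RAB39B, RAB42 and RAB44. RAB3C, a neuronal member, had at most 3 counts in any library, and RAB42 at most 2. RAB9B had 1 to 12 counts, RAB17 had 0 to 4, RAB39B had 0 to 13 and RAB44 had 1 to 30, with the highest count of the last pair in preconditioned replicate 3. No fold change is given for these 6 genes.

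Most tested RAB genes had a slightly higher level in the preconditioned group, and few differed by much. The median log2 fold change (preconditioned against fresh) was 0.26 over the 47 members and 0.01 over all 15029 tested genes. It was above 0 for 32 of the 47 members, against 50.5% of all tested genes, and between −0.5 and 0.5 for 32 of them. With edgeR's quasi-likelihood test, RAB27B, RAB24 and RAB4A rose at an adjusted p limit of 0.05, and no member fell. Of all tested genes, 2.88% rose and 2.2% fell at this limit (293 and 1043 genes with library size alone, against 433 and 330 here), so the share of the family that passed (6.38%) was near the background of 5.08%. With a further limit of 1 on the absolute log2 fold change, RAB27B alone was left, where 2.29% of all tested genes passed and 1.08% passed as higher. At an adjusted p of 0.1, a limit chosen after the values were seen, 13 members were higher and 1 was lower, against 9.96% and 9% of all tested genes. At an unadjusted p of 0.05, 15 members were higher and 3 lower, where 30.6% of all tested genes passed in either direction.

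All 3 preconditioned libraries lay above all 3 fresh libraries for 19 of the 47 members (40.4%), against 17.9% of all tested genes. They lay below for 4 members (8.51%), against 18.8% of all tested genes, and 36.7% of all tested genes had no overlap in either direction. The 4 were RAB20, RAB28, RAB35 and RAB38. When library size alone replaced TMM, the median of all tested genes moved to −0.16, the family's median to 0.09, and 13 members lay above and 11 below, against 10.5% and 28.3% of all tested genes. Such a scaling shifts all genes nearly alike, and the difference between the median of the family and that of all tested genes was 0.25 in both. On log2(FPKM + 1) it was 0.18. Without preconditioned replicate 1, 26 members lay above and 8 below, against 28.4% and 30.2% of all tested genes.

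**Figure D2:**
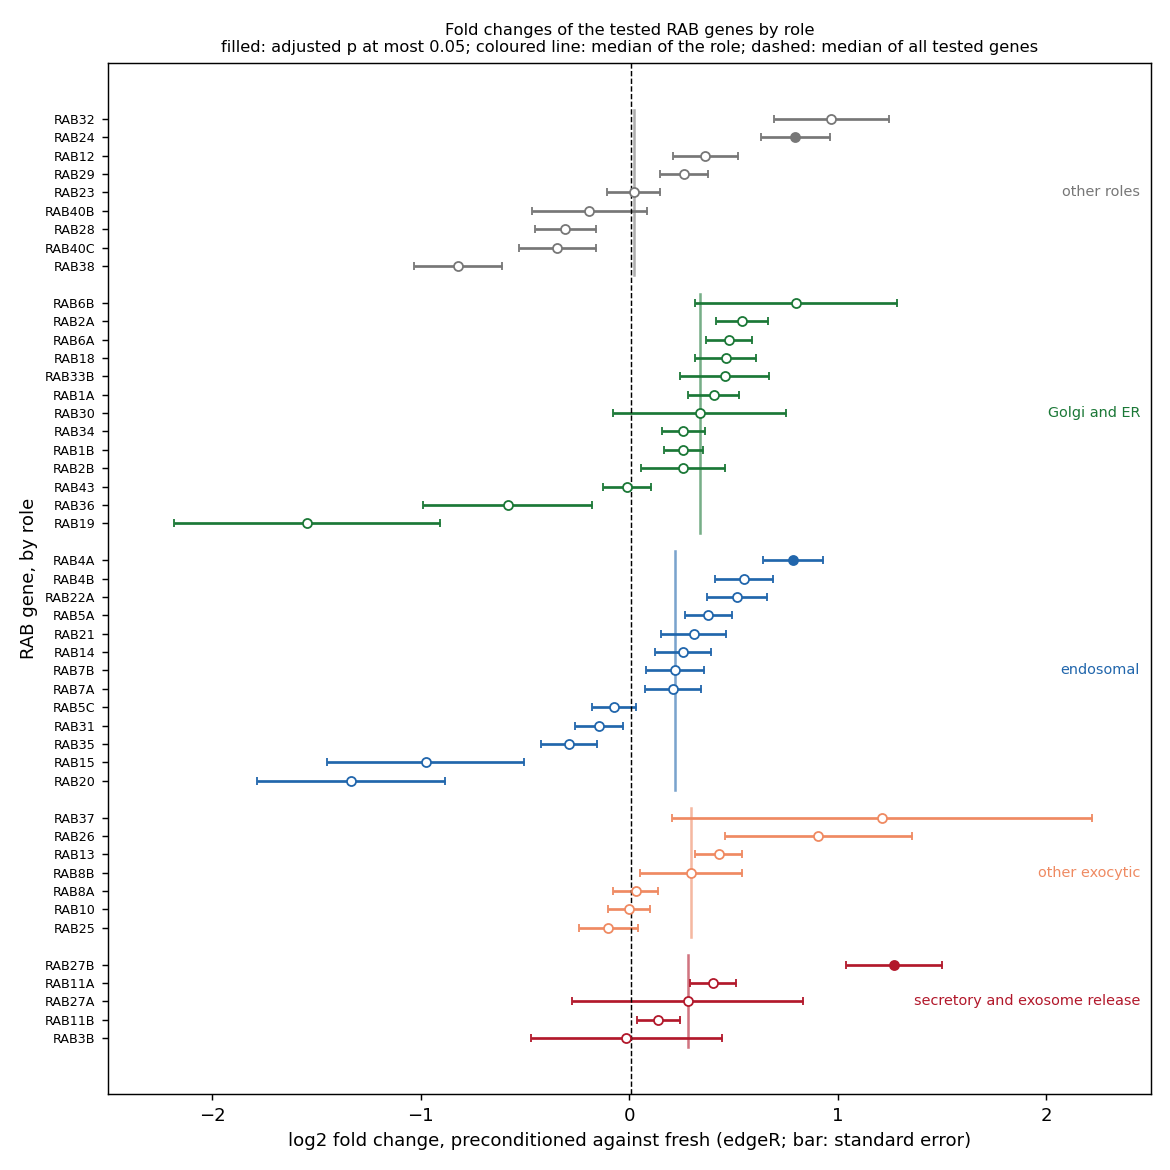
Log2 fold change of the 47 tested RAB genes (points) with its standard error (bars), grouped by role, from edgeR. Filled points mark RAB27B, RAB4A and RAB24, coloured lines the median of each role, and the dashed line the median of all tested genes at 0.01. The medians of the secretory, endosomal and Golgi roles lie between 0.22 and 0.34.

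Of the 8 genes set out as secretory and exosome-release members, 6 were found and 5 were tested. RAB3A and RAB3D were not analysed here, and neither were RAB5B, RAB6C, RAB9A, RAB33A, RAB39A, RAB40A and RAB41 of the other roles. RAB27B had the largest positive fold change of the 47 tested members when all libraries were used. Without fresh replicate 2 or preconditioned replicate 1, the value of the low RAB37 (2.64 and 1.70) was above that of RAB27B (1.16 and 1.46). Its expression was 87.1, 61.9 and 69.0 CPM in the fresh libraries and 122, 193 and 211 CPM in the preconditioned libraries. Every preconditioned library lay above every fresh library, and preconditioned replicate 1 was the lowest of them. In CPM, the mean rose from 72.7 ± 13.0 to 175 ± 46.8 (n = 3, SD). This is a difference of 1.27 on the log2 scale with a standard error of 0.23, and edgeR gave an adjusted p of 0.039. The adjusted p was 0.090 to 0.14 when any library other than preconditioned replicate 1 was left out.

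RAB27A, which also acts in the docking of multivesicular bodies, had a wide spread and did not pass the test. It had 89.5, 54.1 and 44.6 CPM in the fresh libraries and 30.4, 57.2 and 141 CPM in the preconditioned libraries. The lowest and the highest of the 6 values were both in the preconditioned group, in replicates 1 and 3. The log2 fold change was 0.28 (standard error 0.55, adjusted p = 0.76), and it ranged from −0.52 without preconditioned replicate 3 to 0.65 without preconditioned replicate 1. Of the 36 members with a mean of at least 10 CPM, RAB27A had the widest spread within groups, with a pooled SD of 0.87 on the log2 scale against a median of 0.14 over these 36.

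RAB11A had 372, 333 and 374 CPM in the fresh and 446, 484 and 497 CPM in the preconditioned libraries. The groups did not overlap, and the difference was small, at 0.40 on the log2 scale (standard error 0.11, adjusted p = 0.068). RAB11B, which is closely related to RAB11A, had 46.9 to 50.9 CPM in the fresh and 51.0 to 56.9 CPM in the preconditioned libraries. On the log2 scale it differed by 0.14 (standard error 0.10, adjusted p = 0.39), which turned to −0.03 when library size alone was used. RAB3B, a member of the regulated exocytosis group, was expressed at only 1.52 to 2.26 CPM in the fresh and 1.06 to 3.16 CPM in the preconditioned libraries (log2 fold change −0.01, standard error 0.46).

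**Figure D3:**
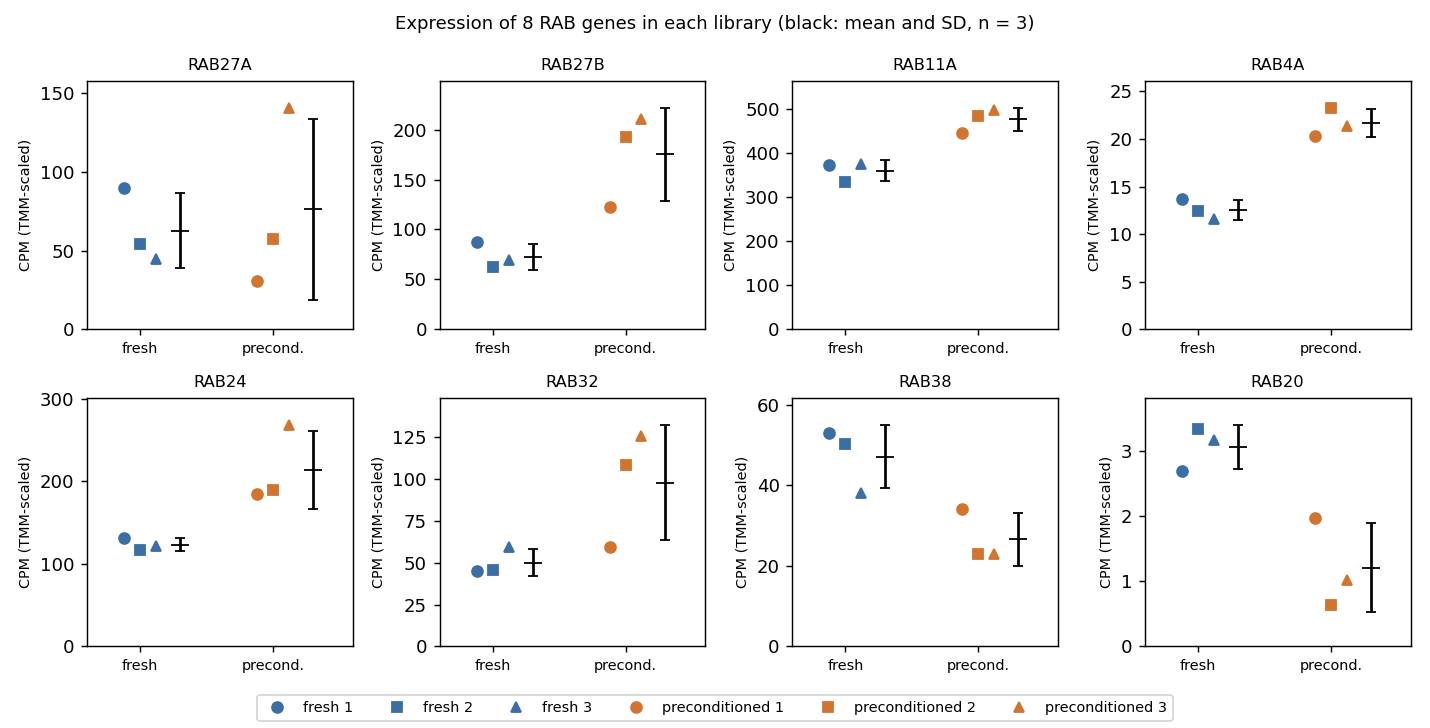
CPM of 8 RAB genes in each library, with the mean and SD of each group in black (n = 3 each) and the vertical axis starting at 0. RAB27B, RAB11A, RAB4A, RAB24 and RAB32 lie higher in all 3 preconditioned libraries, RAB38 and RAB20 lie lower in all 3, and the groups overlap for RAB27A.

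The 7 other exocytic members carry cargo to the cell surface, several of them in polarized epithelia, and all were tested. None had an adjusted p of at most 0.05. RAB13, which is linked to tight junctions, had 50.8 to 61.2 CPM in the fresh and 72.4 to 81.0 CPM in the preconditioned libraries, with no overlap (log2 fold change 0.43, standard error 0.11, adjusted p = 0.064). RAB10, which acts in transport to the basolateral membrane, had 382 to 397 CPM in the fresh and 365 to 405 CPM in the preconditioned libraries, and its log2 fold change was −0.0019 (standard error 0.10). The log2 fold change was 0.03 (standard error 0.11) for RAB8A, also of basolateral and ciliary transport, and −0.10 (standard error 0.14) for RAB25, the epithelial relative of RAB11. RAB8B varied between libraries, from 77.6 to 126 CPM in the fresh and 92.6 to 162 CPM in the preconditioned group. RAB26 and RAB37, which belong to secretory granules, were low, with at most 6.62 and 0.954 CPM. Their log2 fold changes of 0.91 (standard error 0.45) and 1.21 (standard error 1.01) had adjusted p values of 0.21 and 0.45.

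Among the endosomal members, 15 of the 17 listed were found and 13 were tested. RAB4A rose. Its expression was 13.7, 12.4 and 11.6 CPM in the fresh libraries and 20.3, 23.3 and 21.4 CPM in the preconditioned libraries. The groups lay far apart relative to their spread, at means of 12.6 ± 1.04 and 21.7 ± 1.50 (CPM, SD of 3 libraries). The log2 difference was 0.79 with a standard error of 0.15, at an adjusted p of 0.039 by edgeR. RAB4B, the other RAB4 protein of fast recycling, had 21.8 to 25.6 CPM in the fresh and 30.7 to 37.6 CPM in the preconditioned libraries (log2 fold change 0.55, standard error 0.14, adjusted p = 0.059). Leaving out any library other than preconditioned replicate 1 brought the adjusted p of RAB4A to between 0.090 and 0.15.

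The members of early endosomes had smaller differences. RAB5A had 93.5 to 96.6 CPM in the fresh and 109 to 133 CPM in the preconditioned libraries, without overlap (log2 fold change 0.38, adjusted p = 0.079). RAB5C, which serves the same step, had 187 to 194 and 163 to 192 CPM (log2 fold change −0.07, adjusted p = 0.67). RAB22A, which sorts cargo in early endosomes, had 76.4 to 101 and 115 to 144 CPM (log2 fold change 0.52, adjusted p = 0.071). RAB7A, the late endosomal member, had 419 to 466 CPM in the fresh libraries and 427, 544 and 546 CPM in the preconditioned ones, of which replicate 1 lay within the fresh range (log2 fold change 0.21, standard error 0.13, adjusted p = 0.32).

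RAB20 and RAB35 lay lower in every preconditioned library. RAB20, which is linked to phagosome maturation, had 2.69, 3.35 and 3.17 CPM in the fresh libraries and 1.98, 0.639 and 1.02 CPM in the preconditioned libraries. Its log2 fold change was −1.34 (standard error 0.45, adjusted p = 0.10), and without preconditioned replicate 1, the highest of its group, it was −1.90 (adjusted p = 0.018). RAB35, of fast recycling and exosome docking, had 48.5 to 55.2 and 37.3 to 48.2 CPM (log2 fold change −0.29, standard error 0.13, adjusted p = 0.19). RAB15 was low throughout, with 0.395 to 1.52 CPM, and its log2 fold change was −0.98 (standard error 0.47, adjusted p = 0.21). RAB31 had one of −0.14, and the remaining 3 endosomal members (RAB7B, RAB14 and RAB21) had values from 0.22 to 0.31, none of them past the limit.

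Of the 18 members listed for the Golgi and the ER, 14 were found and 13 were tested. None had an adjusted p of at most 0.05, while 7 of the 13 had all preconditioned libraries above all fresh ones, against 17.9% of all tested genes. RAB1A, which acts in transport from the ER to the Golgi, had 457, 391 and 457 CPM in the fresh and 523, 610 and 595 CPM in the preconditioned libraries (log2 fold change 0.41, standard error 0.12, adjusted p = 0.083). RAB2A, which acts between the same compartments, had 144 to 169 and 206 to 255 CPM (log2 fold change 0.54, adjusted p = 0.052). RAB6A, of traffic within and out of the Golgi, had 165 to 182 and 228 to 263 CPM (log2 fold change 0.48, adjusted p = 0.052). The last pair were the nearest to the limit without passing it, and with DESeq2 both had an adjusted p under 0.05.

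RAB18, which is found on the ER and on lipid droplets, had a difference of 0.46 on the log2 scale (adjusted p = 0.089), RAB33B one of 0.46, and RAB1B and RAB34 each one of 0.26. These 4 members also had no overlap between the groups, whereas RAB2B, at 0.26 (adjusted p = 0.41), overlapped. RAB43 differed least of the 13, by −0.01 on the log2 scale (standard error 0.12). RAB6B, RAB30 and RAB36 had less than 10 CPM in every library and overlapped between the groups. RAB19, a Golgi member, had the most negative value of the family in the main test. On log2(FPKM + 1), RAB20 (−1.05) and RAB38 (−0.94) lay below RAB19 (−0.46). RAB19 had 2.64, 3.04 and 1.20 CPM in the fresh and 1.43, 0.288 and 0.625 CPM in the preconditioned libraries. These groups overlapped, and the log2 fold change was −1.54 (standard error 0.64, adjusted p = 0.15). Without preconditioned replicate 1, the highest of its group, it was −2.33 (adjusted p = 0.037), in a setting where 25.2% of all tested genes passed. Leaving out any other library gave RAB19 adjusted p values from 0.16 to 0.35.

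The 11 remaining members act in autophagy, cilia, melanosomes, lysosomes or protein turnover, and 9 of them were tested. RAB24, which is linked to autophagy, rose. It had 132, 116 and 122 CPM in the fresh libraries and 184, 190 and 268 CPM in the preconditioned libraries. The values of the preconditioned libraries were all higher, and that of replicate 3 was the highest. The means were 123 ± 7.87 and 214 ± 47.1 (CPM, SD of 3 libraries). On the log2 scale they differed by 0.80 (standard error 0.17), at an adjusted p of 0.045 by edgeR. With library size alone the value was 0.63 (adjusted p = 0.058), on log2(FPKM + 1) and log2(FPKM + 0.1) the adjusted p was 0.063 and 0.061, and leaving out any library other than preconditioned replicate 1 gave adjusted p values from 0.080 to 0.16.

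RAB32 and RAB38 act in the same route, the delivery of cargo to melanosomes and other lysosome-related organelles, and they differed in opposite directions. RAB32 had 44.9, 45.9 and 59.1 CPM in the fresh and 59.3, 109 and 126 CPM in the preconditioned libraries. Preconditioned replicate 1 lay only just above the highest fresh library (log2 fold change 0.97, standard error 0.28, adjusted p = 0.076). RAB38 had 52.8, 50.3 and 38.1 CPM in the fresh and 34.2, 22.8 and 22.9 CPM in the preconditioned libraries (log2 fold change −0.82, standard error 0.21, adjusted p = 0.060). Without preconditioned replicate 1, the values were 1.22 (adjusted p = 0.0054) and −1.05 (adjusted p = 0.0088), where 25.2% of all tested genes passed. The adjusted p of RAB38 was also under 0.05 with DESeq2 (0.0094), with library size alone (0.042) and with no filter on low counts (0.047). On log2(FPKM + 1) it was 0.047, and RAB38 passed on log2(FPKM + 0.1) as well.

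Of the 8 markers of melanocytes, 5 were at or near 0, with at most 1 count for TYR, 2 for MLANA, 3 for PMEL, 5 for SOX10 and 10 for DCT in any library. MITF, a transcription factor of pigment cells that other cells also express, made up most of their sum, at 4.22 to 5.44 CPM in the fresh and 2.19 to 3.69 CPM in the preconditioned libraries, without overlap (log2 fold change −0.61, adjusted p = 0.20). KIT had 4 to 12 counts in the fresh and 0 to 2 in the preconditioned libraries. TYRP1, another melanosome gene, was at 6 to 10 counts in the fresh group and at 4, 50 and 79 counts in the preconditioned group. The summed level of the 8 melanocyte markers was 4.90 to 6.18 CPM in the fresh and 2.77 to 6.45 CPM in the preconditioned group. CD68, a marker of macrophages and also a lysosomal protein, had 93.4 to 129 CPM in the fresh libraries and 121, 299 and 288 CPM in the preconditioned ones, while PTPRC had at most 1.50 CPM. The 8 immune markers summed to 158 to 191 CPM in the fresh and 190 to 387 CPM in the preconditioned group, and none of the 7 tested passed the limit. Without CD68 the sums overlapped, at 57.8 to 97.8 and 32.0 to 87.9 CPM. LAPTM5, the next in level, had a log2 fold change of −0.28 and CD14 one of 0.02. PTPRC (1.02), CSF1R (0.64), TYROBP (0.54) and AIF1 (0.35) had positive values, with overlap between the groups. Each of these was highest in preconditioned replicate 2. The 5 conjunctival markers found summed to 2655 to 4690 CPM in the fresh and 1910 to 4663 CPM in the preconditioned group. KRT13 and KRT4 had 61.0 and 44.2 CPM in preconditioned replicate 1, and at most 20.6 and 13.0 CPM in any other library. KRT7 and SPDEF were not highest there, and none of the 4 tested passed the limit. The part of other cell types in the RAB values was not tested beyond these levels.

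RAB12 and RAB29, which belong to the lysosomal system, had log2 fold changes of 0.36 (adjusted p = 0.16) and 0.26 (adjusted p = 0.17). RAB23 and RAB28, 2 members of cilia, had values of 0.02 and −0.31 (adjusted p = 0.93 and 0.20). RAB40B and RAB40C, which carry a SOCS box and act with ubiquitin ligases, had values of −0.19 and −0.34. RAB28 lay lower in all preconditioned libraries, at 13.4 to 15.7 CPM against 16.7 to 19.4 CPM.

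Set side by side, the secretory, endosomal and Golgi members had medians between 0.22 and 0.34 and wide ranges. The median log2 fold change was 0.28 over the 5 secretory and exosome-release members tested, with a range from −0.01 to 1.27. It was 0.22 over the 13 endosomal members (−1.34 to 0.79), 0.34 over the 13 Golgi and ER members (−1.54 to 0.80), and 0.26 over the last 2 roles together. The secretory median is the value of RAB27A, and without preconditioned replicate 3 it was 0.10. With library size alone, the secretory, endosomal and Golgi medians were 0.11, 0.054 and 0.16, where the median of all tested genes was −0.16. On log2(FPKM + 1) they were −0.027, 0.053 and 0.088, where that of all tested genes was −0.094, so that the secretory median changed sign. Of the 5 secretory members, 3 had all preconditioned libraries above all fresh ones, as did 5 of the 13 endosomal and 7 of the 13 Golgi members, against 17.9% of all tested genes. All preconditioned libraries were below for 2 endosomal members and for none of the secretory and Golgi members, against 18.8% of all tested genes. With so few genes in each role, these values are a description, and the difference between roles was not tested.

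The make-up of the summed RAB level, a share within each library that does not depend on the scaling between libraries, differed in small steps. On the FPKM scale, the secretory and exosome-release members made up 19.3% to 20.0% of the RAB sum in the fresh and 20.9% to 22.2% in the preconditioned libraries. The endosomal members made up 31.4% to 32.1% and 27.6% to 29.0%. Their sum itself overlapped between the groups in FPKM, at 623 to 667 and 618 to 662. FPKM sums, unlike shares, depend on the scaling, and they use library totals without the TMM factors. Those factors were 1.06 to 1.07 in the fresh and 0.914 to 0.965 in the preconditioned libraries. TMM scaling would thus raise the preconditioned sums relative to the fresh ones, so the overlap is given for FPKM only. The sums of the secretory members (373 to 423 and 445 to 533 FPKM), of the Golgi and ER members (465 to 522 and 558 to 597 FPKM) and of the remaining roles (207 to 224 and 241 to 337 FPKM) were higher in every preconditioned library. RAB24 gave 45.9% to 58.3% of the last of these sums, which without it overlapped, at 112 to 118 and 104 to 140 FPKM. The Golgi and ER members overlapped, at 24.0% to 25.1% and 24.9% to 26.9%. RAB11A alone gave 79.3% to 86.6% of the secretory sum, so that this share mostly follows 1 gene. Without RAB11A, the secretory sum was 55.4 to 72.0 FPKM in the fresh and 60.1 to 110 FPKM in the preconditioned libraries, and these ranges overlapped.

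**Figure D4:**
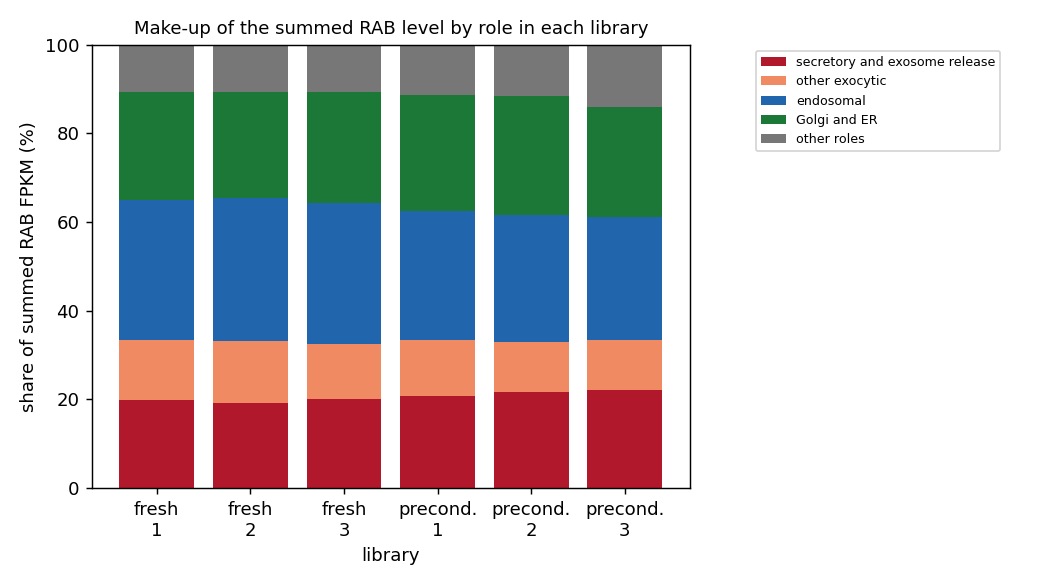
Share of the summed RAB FPKM taken by each role in the 3 fresh and 3 preconditioned libraries, as stacked bars from 0 to 100%. The secretory share (bottom) is 19.3% to 20.0% in the fresh and 20.9% to 22.2% in the preconditioned libraries. The endosomal share is lower in the preconditioned libraries, while the endosomal sum overlaps between the groups in FPKM, which is not TMM-scaled.

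Pairs of related RAB proteins were compared by the share of the first member in the summed FPKM of the pair, again within each library. For 12 pairs the log2 ratio of the members was compared between the groups by an exact permutation test (2-sided), for which 3 libraries against 3 cannot give a p under 0.1. It was reached by 6 pairs, each with an adjusted p of 0.2 over the 12 pairs, and so none passed. RAB32 made up 43.6%, 45.4% and 58.6% of the sum of RAB32 and RAB38 in the fresh libraries, and 61.2%, 81.3% and 83.4% in the preconditioned ones. RAB27A made up 56.3%, 52.3% and 44.8% of the RAB27 sum in the fresh libraries and 23.8%, 27.1% and 45.6% in the preconditioned ones, where replicate 3 lay within the fresh range (exact permutation p = 0.2).

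RAB5A had 25.4% to 25.9% of the sum of RAB5A and RAB5C in the fresh and 28.0% to 35.5% in the preconditioned libraries, and RAB22A had 14.2% to 17.9% and 19.6% to 25.0% of its sum with RAB31. The balance of RAB7A to RAB7B (exact permutation p = 1) and that of RAB1A to RAB1B (exact permutation p = 0.3) overlapped between the groups. The remaining pairs of the 6 had small steps without overlap. RAB11A had 92.4% to 93.7% of the RAB11 sum in the fresh and 94.0% to 94.7% in the preconditioned libraries, RAB4A had 24.1% to 28.41% and 28.45% to 31.7% of the RAB4 sum, and RAB2A had 87.2% to 87.83% and 87.84% to 91.7% of the RAB2 sum.

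**Figure D5:**
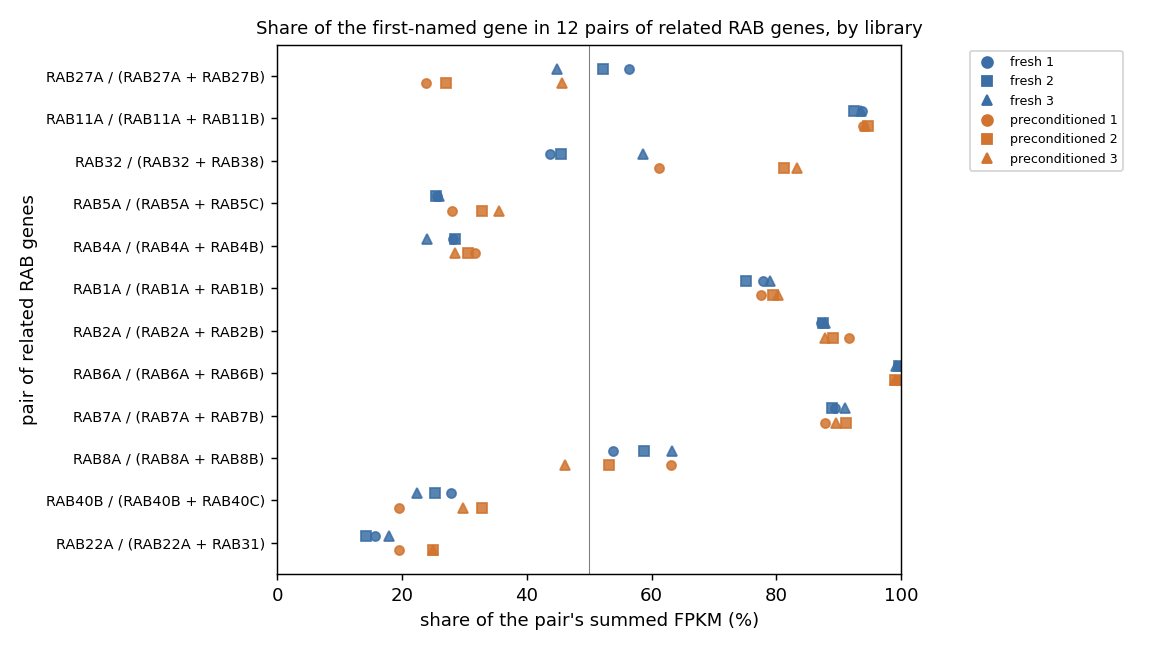
Share (%) of the first-named gene in the summed FPKM of 12 pairs of related RAB genes, 1 point per library (blue: fresh, orange: preconditioned). The shares of RAB32, RAB5A, RAB22A, RAB11A, RAB4A and RAB2A lie higher in all 3 preconditioned libraries, the last 3 by small steps, and the share of RAB27A is lower in 2 of the 3.

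Of 124 listed partners, the genes that load, recycle and read RAB proteins, 122 were found and 118 were tested. Their median log2 fold change was 0.07, 67 were above 0, and 4 rose with an adjusted p of at most 0.05 while none fell, against 5.08% of all tested genes past this limit. The direction of the calls depended on the scaling and tool, with 3 higher and 9 lower under library size alone, 12 higher and 8 lower with DESeq2, and 1 higher and 3 lower on log2(FPKM + 1). In these settings 8.89%, 19.1% and 7.55% of all tested genes passed. All genes also leaned to lower under library size alone (293 higher, 1043 lower) and on log2(FPKM + 1) (255 higher, 880 lower). With DESeq2, 1481 were higher and 1442 lower. DENND2A, of the DENN family of RAB activators, rose from 4.66, 4.86 and 7.49 CPM to 11.6, 23.7 and 29.4 CPM (log2 fold change 1.92, standard error 0.37, adjusted p = 0.041 by edgeR). TBC1D8B, of the TBC family that ends RAB signals, rose from 11.4, 14.8 and 13.4 CPM to 30.5, 41.5 and 39.7 CPM (log2 fold change 1.50, standard error 0.18, adjusted p = 0.018). In both genes the lowest preconditioned library was replicate 1 and the groups lay apart. The adjusted p of DENND2A was 0.088 to 0.15 when any library other than preconditioned replicate 1 was left out, and 0.053 on log2(FPKM + 1). That of TBC1D8B was 0.063 to 0.10 without any 1 fresh library and 0.085 without preconditioned replicate 2.

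SYTL2, an effector that binds RAB27A and RAB27B and tethers their vesicles at the plasma membrane, rose from 128, 121 and 95.6 CPM to 169, 219 and 204 CPM (log2 fold change 0.78, standard error 0.16, adjusted p = 0.042). RABAC1, which binds prenylated RAB proteins at the Golgi, rose from 84.5, 84.4 and 96.8 CPM to 118, 163 and 140 CPM (log2 fold change 0.67, standard error 0.14, adjusted p = 0.047). When any library other than preconditioned replicate 1 was left out, the adjusted p was 0.099 to 0.15 for SYTL2 and 0.10 to 0.16 for RABAC1. On log2(FPKM + 1) these genes had 0.055 and 0.061, and with library size alone RABAC1 had 0.059. The 4 partners that failed the filter on low counts, named here after their values were seen, were all effectors of the secretory group, namely SYTL3, MLPH, MYRIP and RPH3AL.

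By list, the 8 genes of prenylation and recycling had a median log2 fold change of 0.30 and 1 of them (RABAC1) passed. The median was 0.06 over 31 activators or genes of their complexes, −0.06 over 32 TBC-domain and related proteins, 0.09 over 18 secretory effectors and 0.12 over 29 endosomal and Golgi effectors. At an adjusted p of at most 0.1, 14 partners were higher and 11 lower, against 9.96% and 9% of all tested genes.

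In the GO terms of the deposited table, all 53 members were annotated with GTPase activity and 49 with RAB protein signal transduction. The term extracellular exosome was attached to 14 members (26.4%) and to 3.93% of all genes in the table. The 13 of these 14 that were tested had a median log2 fold change of 0.26, equal to that of the family to 2 decimals, and 2 of them rose, against 2.88% of all tested genes. Regulation of exocytosis was attached to 7 members, and the 6 tested had a median of 0.01. Melanosome was attached to 11 members (median 0.33 over 10 tested), and early endosome to 12 (median 0.26 over 11 tested). The broader terms had lower medians, with 0.08 over 12 tested for endosome (14 members) and 0.03 over 25 tested for plasma membrane (30 members).

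The median pooled SD within groups, on the log2 CPM scale, was 0.17 over the 47 members, against 0.27 over all tested genes. It ranged up to 1.34 for RAB37, 0.89 for RAB19 and 0.87 for RAB27A. Preconditioned replicate 1 was the library of its group nearest to the fresh mean for 30 members (63.8%), against 52.2% of all tested genes. Without it, 17 of 48 tested members passed an adjusted p of 0.05 (13 higher, 4 lower), where 25.2% of all tested genes did, and RAB27B, RAB4A and RAB24 were among them. With DESeq2 on all 6 libraries, 13 of 48 members passed (11 higher, 2 lower), against 19.1% of all tested genes. Beside the 3 genes named above, these were RAB1A, RAB2A, RAB4B, RAB6A, RAB11A, RAB13, RAB22A and RAB32, which were higher, and RAB20 and RAB38, which were lower.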

How the data were processed

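Reads of the 6 libraries were aligned by the authors with hisat2 and counted per gene with htseq-count, and the counts were deposited without normalization. The genome build, annotation and strand setting are not given in the sources used here, so reads of overlapping genes could not be told apart. The deposited FPKM values equal the count divided by the library total and by 1 length per gene, and served for levels between genes. Another 7 rows without a symbol are described as Rab proteins and were not members, and near-identical copies may share reads. The members and lists were chosen with earlier results of these data known.

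The main test, run on the counts of all genes, was the quasi-likelihood test of edgeR 4.0.16 under R 4.3.3 (filterByExpr, TMM, robust, condition as the only factor) with Benjamini-Hochberg adjustment over 15029 genes. Standard errors were derived from the F statistic. Named genes were the secretory members, members and partners with an adjusted p of at most 0.05, the 5 members with the largest and the 5 with the smallest fold change and the 5 with the highest level, and other members are given for their role. Alternatives were DESeq2 1.42.0, other scalings and filters, limma 3.58.1 on FPKM, the replicate number as a block, and leaving out each library. The fit was tested on simulated counts.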

Additional observations from a re-analysis of the deposited data

How the results depend on the processing

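With DESeq2, 2 members passed both limits (RAB27B and RAB20) and 13 passed without the fold limit, together with 5 and 20 partners (12 higher and 8 lower) and 1190 and 2923 of all genes, and the median of the other roles was 0.16. With library size alone, 12 partners (3 higher and 9 lower) passed without the fold limit, 564 and 1336 of all genes (142 and 293 higher, 422 and 1043 lower) passed with and without it, and the medians were 0.054 for endosomal members, 0.16 for Golgi members and −0.15 for the other roles. RAB11B then had −0.029, and 11 members had groups apart and lower. Without a filter on low counts, 5 members passed without the fold limit (4.38% of all genes), and the median of the other roles was 0.15. On log2(FPKM + 1), 2 members (RAB27B higher, RAB20 lower) and 283 of all genes (77 higher, 206 lower) passed both limits, and the medians by role were −0.027 (secretory), 0.11 (other exocytic), 0.053 (endosomal), 0.088 (Golgi) and −0.11 (other). On log2(FPKM + 0.1), the secretory, endosomal, Golgi and other medians were −0.031, 0.055, 0.091 and −0.14, with 590 and 1205 of all genes past the limits. On these scales RAB27A had −0.091 and −0.11 and RAB11B −0.030 and −0.031. With DESeq2's size factors in edgeR, RAB10 had 0.0043. With glmTreat, 0 members and 24 of all genes passed.

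With the replicate number as a block, 0 members, 1 partner (TBC1D8B) and 30 of all genes passed, with or without the fold limit. Libraries of the same number did not deviate together (correlations −0.067, −0.073 and −0.11 across genes, 0 of 6 libraries best with their own number), so the numbers were not taken as pairs.

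Leaving out each library in turn gave 0 to 5 members past both limits and 0 to 17 without the fold limit, 0 to 4 and 0 to 31 partners, and 14 to 1546 and 14 to 3892 of all genes. The highest counts came without preconditioned replicate 1. The medians ranged from 0.10 to 0.44 (secretory), 0.074 to 0.47 (other exocytic), 0.15 to 0.27 (endosomal), 0.23 to 0.43 (Golgi) and −0.056 to 0.066 (other roles). The members apart and higher numbered 20 to 26 (20.1% to 28.4% of all genes), those lower 4 to 8 (21.1% to 30.2% of all genes). RAB10 ranged from −0.046 to 0.040, RAB3B from −0.53 to 0.27 and RAB27A from −0.52 to 0.65. The cause of these changes was not tested. The signs of RAB27B, RAB4A, RAB24, RAB32 and RAB38 were the same in all 14 alternatives fitted for single genes. The alternatives for groups apart were chosen after seeing the data.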
